A study of Mus musculus with 3 samples.

Results

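The genes described here are the solute carriers (Slc genes) whose RNA was detected in motor neuron cultures made from mouse embryonic stem cells. They were chosen by name and by detection: a probe was taken if its platform gene symbol began with Slc and a digit and its detection p-value was under 0.01 on at least 1 of the 3 arrays. Slc18a2, Slc18a3, Slc5a7, Slc10a4, Slc10a4l, Slc32a1, Slc17a6 and Slc1a3 were left out by name. The rule gave 202 probes for 151 genes, out of 474 Slc probes for 326 genes on the array and 25697 probes in all. Without the names left out there were 465 probes for 318 genes, of which 167 genes had no detected probe. The detection p-values chose the members, so the presence of a signal is a description and not a finding. At the edge of the rule, the highest best detection p-value among the members was 0.00877, for Slc25a13, and the lowest outside was 0.01002506, shared by 3 probes for Slc1a7, Slc30a4 and Slc6a20a.

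The cells were Hb9-GFP mouse embryonic stem cells, in which green fluorescent protein (GFP) reports on the motor neuron gene Hb9 (Mnx1). They were kept on feeder cells in medium with serum and were then turned into embryoid bodies that received retinoic acid and purmorphamine, a Hedgehog pathway agonist. All 3 populations, GFP high (called motor neurons in the labels), GFP low and GFP negative, carried the same reporter and had the same treatment, and differed only in the GFP level at sorting. Each population was measured on 1 array, with no replicate, and the labels give neither the number of clones or cultures nor the day of sorting. No test or p-value for a difference was therefore possible, and the words higher and lower below compare 3 single arrays. The 3 comparisons share arrays with each other.

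Solute carriers move small molecules across membranes without spending ATP directly. They exchange one solute for another, use a gradient of sodium, protons or chloride that a pump has built, or let a solute run down its own gradient. In developing neural tissue they are known for the supply of glucose and amino acids to dividing cells, for setting the chloride level on which inhibitory transmission depends, for the traffic of metabolites in and out of mitochondria, lysosomes and the Golgi, and for loading and clearing transmitters.

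Only 4 of the 151 genes code for proteins that are not carriers but whose names derive from one: Slc4a1ap and Slc7a6os, and the scaffold proteins Slc9a3r1 and Slc9a3r2. The remaining genes were grouped by substrate, with 14 classes in all when the non-carriers are counted as one. Detection, which chose the members, is given by class as a description only. In all, 151 of 318 Slc genes not left out by name were detected, beside 8759 of 16593 genes on the array. Of 39 mitochondrial carriers on the array 28 were detected, as were 21 of 28 metal carriers and 20 of 29 carriers of nucleotide sugars and other endoplasmic reticulum (ER) and Golgi substrates. In other classes, 19 of 45 amino acid carriers and 16 of 48 carriers of inorganic ions were detected. So were 8 of 31 carriers of organic ions, peptides and urea and 2 of 17 carboxylate and sulfate carriers. Of 51 well-known carriers listed by name, 33 were detected, 12 had probes that were not detected on any array and 6 had no probe under their symbol. Among the 12 were Slc12a5, the neuronal potassium-chloride exporter, Slc17a7, a vesicular glutamate transporter, Slc6a5, the neuronal glycine transporter, and Slc16a1, a lactate carrier. A probe that was not detected sets no level, and says nothing of its protein.

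Stretches of 4 promoters are shown because the genes come up among the results below and because each holds a motif named for nutrient or metal supply. Sequences are RefSeq's for the mouse build GRCm38.p6, 5′ to 3′ on the gene's strand, from 250 bases before to 50 after the annotated start. Slc7a11 lies at chr3:50443564-50443863 (minus strand), Slc7a7 at chr14:54417895-54418194 (minus), Slc1a4 at chr11:20332664-20332963 (minus) and Slc30a1 at chr1:191906531-191906830 (plus). Capitals mark matches to TGATGNAA, the core of the amino acid response element, in the first 3, and to TGCACNC or TGCGCNC, the core of the metal response element, in Slc30a1, each read on both strands.
Slc7a11: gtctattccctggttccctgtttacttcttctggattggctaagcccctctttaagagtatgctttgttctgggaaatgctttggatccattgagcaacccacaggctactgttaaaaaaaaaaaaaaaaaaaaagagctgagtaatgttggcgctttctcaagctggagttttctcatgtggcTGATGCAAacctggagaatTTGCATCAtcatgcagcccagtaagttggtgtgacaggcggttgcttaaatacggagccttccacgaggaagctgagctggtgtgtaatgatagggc
Slc7a7: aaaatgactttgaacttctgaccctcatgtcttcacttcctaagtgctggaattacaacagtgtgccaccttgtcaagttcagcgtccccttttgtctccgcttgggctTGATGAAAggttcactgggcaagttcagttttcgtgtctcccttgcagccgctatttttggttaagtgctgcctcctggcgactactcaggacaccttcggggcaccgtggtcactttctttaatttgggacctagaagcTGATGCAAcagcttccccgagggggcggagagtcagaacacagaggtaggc
Slc1a4: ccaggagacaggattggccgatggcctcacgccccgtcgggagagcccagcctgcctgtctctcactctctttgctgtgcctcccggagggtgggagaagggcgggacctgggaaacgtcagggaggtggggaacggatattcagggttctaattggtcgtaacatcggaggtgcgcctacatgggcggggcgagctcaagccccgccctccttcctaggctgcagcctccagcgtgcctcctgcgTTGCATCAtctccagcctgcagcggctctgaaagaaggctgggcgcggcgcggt
Slc30a1: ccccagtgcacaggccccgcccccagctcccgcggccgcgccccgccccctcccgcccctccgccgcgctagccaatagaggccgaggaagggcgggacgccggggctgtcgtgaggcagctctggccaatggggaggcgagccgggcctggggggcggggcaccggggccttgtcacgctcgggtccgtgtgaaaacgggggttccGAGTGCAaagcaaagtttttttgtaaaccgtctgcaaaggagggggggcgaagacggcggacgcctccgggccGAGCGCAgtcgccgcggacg
In Slc7a11 the matches begin 66 and 47 bases before the start, and in Slc1a4 the match begins 4 bases before it. Slc7a7 has 5 listed promoters, and the one shown has matches 141 bases and 1 base before its start. Slc30a1 has 1 match 43 bases before and 1 beginning 30 bases after the start. The motifs were chosen with results of these data in view. TGATGNAA was present in 3.97% of all 32851 promoters, in 3.68% of the 163 promoters of member genes and in 4 of 18 promoters (22.2%) of amino acid carriers, where 13 genes were covered. Those 4 all belong to the genes shown, Slc7a11, Slc7a7 and Slc1a4, and overlapping promoters of Slc7a7 are counted separately. Because the genes were picked for holding the motif, the share is no measure of enrichment, which was not tested. The metal motif was present in 25.7% of all promoters, 35.6% of member promoters and 9 of 19 promoters (47.4%) of metal carriers. A match is a run of letters, and whether any factor binds there was not measured.

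The arrays were alike in brightness: the median unnormalized intensity was 105.3, 109.9 and 108.1 in GFP high, low and negative cells, and between 11689 and 11736 probes were detected. Mnx1 itself had a log2 signal of 7.99, 5.30 and 5.16 in that order. Marker lists differed among the populations. Summed neuronal marker signal, over 9 detected of 12 markers with Tubb3, Nefl and Snap25 not detected, was 21147, 13943 and 5315 in GFP high, low and negative cells. That of 5 dividing-cell markers was 1543, 4935 and 8259, of 7 of 8 radial glia and progenitor markers (Pax6 not detected) 4198, 7835 and 12884, and of 8 of 11 extraembryonic endoderm markers 681, 1054 and 5266. Erythroid markers (4 of 8, with Gata1, Klf1, Alas2 and Epor not detected) gave 85.8, 102 and 1360, and fibroblast and feeder markers (4 of 9, with Col1a1, Col1a2, Col3a1, Pdgfrb and Thy1 not detected) gave 258, 599 and 2643. Endothelial markers (2 of 6, with Pecam1, Cdh5, Kdr and Tek not detected) gave 52.5, 69.2 and 127. The sums include signals of markers not detected on the array in question, as for all 4 erythroid markers in GFP high cells, so low sums set no level. Neuronal markers were highest on the GFP high array and all the other lists on the GFP negative array, and the part of these cell types in the carrier differences was not tested. In bulk RNA of this kind, fewer cells of a type and less RNA per cell cannot be told apart.

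The solute carriers kept by the rule were 2-fold apart at shares near or below those of all genes. Of the carriers left out by name, 7 genes were detected and are not in the carrier counts, so the shares do not describe the whole family. Between GFP high and GFP negative cells, 10 of 148 carrier genes detected on either array had a signal at least 2-fold above that of GFP negative cells (6.76%, against 7.0% of all 8617 genes) and 12 lay at least 2-fold below it (8.11%, against 9.89%). The median log2 difference was -0.05 among carriers and 0.02 among all genes, with the middle 50% of carriers between -0.34 and 0.37. GFP high and GFP low cells differed less, with 1 of 145 carriers 2-fold higher (0.69%, against 1.11% of 8432 genes) and 4 lower (2.76%, against 4.16%). Between GFP low and GFP negative cells, 2 of 150 carriers were higher (1.33%, against 3.37% of 8523 genes) and 2 lower (1.33%, against 2.69%). With undetected signals set at their bound, the counts were 8 and 12 for the first comparison (against 6.1% and 8.65% of all genes), 1 and 3 for the second (0.937% and 3.65%) and 1 and 2 for the last (2.92% and 2.19%). The first comparison gave shares near the background, which is not a result about carriers; the lower shares of the other comparisons rest on 1 to 4 genes each way and have no test. What follows is a description of single genes and classes. As a gauge, the spread (SD) of log2 differences due to probe choice, taken from genes with several detected probes, was 0.33, 0.26 and 0.29 for the 3 comparisons. It covers the choice of probe and not the spread between cultures or sorts.

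**Figure D1:**
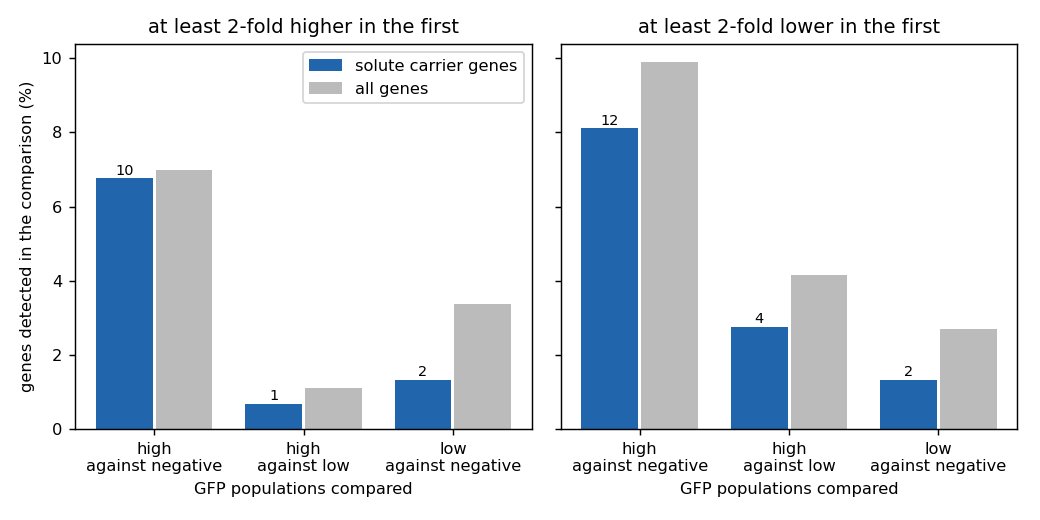
Percent of genes at least 2-fold higher (left) or lower (right) in the first-named population, in each of the 3 comparisons. Solute carrier genes, without those left out by name, are in blue and all detected genes in grey. The 2 kinds of bar are of similar height for GFP high against GFP negative (6.76 and 7.0, 8.11 and 9.89), and carriers lie below all genes in the other comparisons.

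Among the carriers kept by the rule, the largest difference between GFP high and GFP negative cells was that of an amino acid carrier. Slc7a11, the light chain of the exchanger that imports cystine in return for glutamate and so feeds glutathione synthesis, had unnormalized intensities of 185, 333.4 and 743.1 in GFP high, low and negative cells. Its normalized log2 signals were 6.85, 7.89 and 9.35. The level was lowest in GFP high cells and highest in GFP negative cells, 5.65-fold lower in the former, with GFP low cells in between at 2.05-fold above GFP high and 2.75-fold below GFP negative. Except for the neuronal list, the summed signals of all detected marker lists had the same order, and a link to any of them was not tested. Slc7a7, another light chain, which exports cationic amino acids, read 6.001, 6.22 and 7.14, or 2.20-fold lower in GFP high relative to GFP negative cells; its second detected probe had a log2 difference of -0.73. Slc3a2, the heavy chain that carries these light chains to the membrane, read 7.08, 6.84 and 7.56, a difference of -0.48, with the lowest level in GFP low cells.

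The light chains that pair with Slc3a2, listed after the values had been seen, were not alike in size. Of 6 listed, 4 were detected, all 4 were below 0 in GFP high against GFP negative cells and 2 were 2-fold lower. Slc7a5, the large neutral amino acid exchanger, read 13.40, 13.25 and 13.51, and Slc7a6 differed by -0.03, so both stayed within the probe-choice SD while Slc7a11 and Slc7a7 did not. The other amino acid carriers lay on both sides of 0. Slc1a4, a neutral amino acid and serine exchanger, read 10.12, 10.48 and 10.73, Slc7a3, a cationic amino acid carrier, 11.69, 11.71 and 12.15, and Slc6a15, a neutral amino acid carrier of neurons, 6.99, 7.48 and 7.83. Each was higher in GFP negative than in GFP high cells, by less than 2-fold. Slc38a10, a relative of the glutamine carriers, read 7.32, 6.89 and 6.59, highest in GFP high cells with a difference of 0.72. Slc38a1, a neuronal glutamine carrier, was detected at 5.60 and 5.54 in GFP high and low cells. In GFP negative cells Slc38a1 just missed the detection limit, with a detection p-value of 0.01003, and lay at least 1.37-fold below GFP high cells. Slc38a2, a glutamine carrier that responds to amino acid lack, differed by -0.19, and of its other probes one differed by -0.22 and one was not detected in GFP negative cells. Slc1a5, a glutamine exchanger, was detected in GFP negative cells only, with a bound of just 1.09-fold above GFP high and GFP low cells.

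In the same class, 4 detected members are known from lysosomes, and 3 of them were higher in GFP high cells by more than the probe-choice SD. Slc7a14 read 6.64, 6.35 and 5.49, or 2.22-fold higher in GFP high relative to GFP negative cells, and its 3 detected probes gave differences from 1.06 to 1.30, the lowest from a probe detected in GFP high cells only. Slc38a9, the arginine sensor of the lysosomal membrane that reports to mTORC1, read 8.71, 7.98 and 7.81, a difference of 0.90. Its second detected probe differed by 0.30 against GFP negative and 0.07 against GFP low cells, both within the probe-choice SD. Slc66a1, an exporter of cationic amino acids from lysosomes, read 6.49, 5.94 and 5.78, a difference of 0.70. GFP high cells had the highest level of these 3, and for Slc38a9 and Slc66a1 GFP low cells were close to GFP negative cells. Slc38a7, a lysosomal glutamine and asparagine carrier, read 6.57, 7.04 and 6.71 and was lowest in GFP high cells, at -0.14 against GFP negative and -0.47 against GFP low cells. Across the 19 amino acid carriers 6 were above 0 and 13 below, with a median of -0.19, against 0.02 for all genes.

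**Figure D2:**
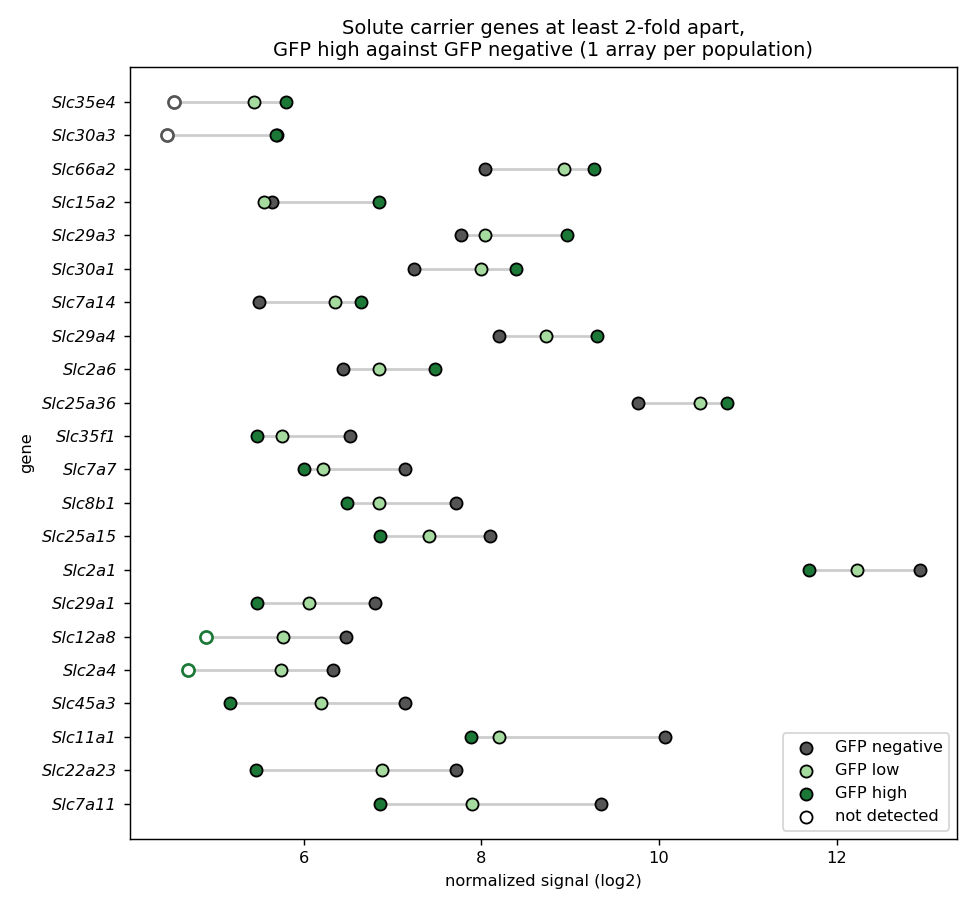
Normalized log2 signal (horizontal axis) of the carrier genes at least 2-fold apart between GFP high and GFP negative cells, 1 gene per line, with 1 point per population and open points where the gene was not detected. Levels compare within a gene only; in most genes the GFP low point lies between the others, as for Slc7a11 at 6.85, 7.89 and 9.35.

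Of 8 sugar carriers compared, the difference of GFP high minus GFP negative cells passed 2-fold downward in 3 and upward in 1. By sign alone, 5 lay below 0 and 3 above. Slc2a1, the glucose carrier GLUT1 that supplies most dividing cells, had unnormalized intensities of 3167, 5017 and 8064, and log2 signals of 11.69, 12.23 and 12.94. It was highest in GFP negative and lowest in GFP high cells, with GFP low cells between, and was 2.38-fold lower in GFP high relative to GFP negative cells. Slc2a3, GLUT3, the neuronal glucose carrier, read 9.44, 9.28 and 9.62, and its populations lay within 0.34 of each other. Slc2a4, GLUT4, which insulin moves to the surface of muscle and fat, was not detected in GFP high cells and read 5.74 and 6.32 in GFP low and negative cells, which is at least 2.29-fold lower in GFP high relative to GFP negative. That bound holds for the background setting used, and across other settings the difference fell to -0.61, under 2-fold. Slc45a3, a sugar carrier first known from prostate, read 5.17, 6.19 and 7.14, or 3.92-fold lower. Its GFP high signal was close to the detection limit, and without background correction the difference fell to -0.94, under 2-fold. Slc2a6, GLUT6, a lysosomal member, went the other way at 7.48, 6.84 and 6.44, or 2.04-fold higher in GFP high relative to GFP negative cells.

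Of the 3 nucleoside carriers compared between GFP high and GFP negative cells, 2 were higher and 1 lower at 2-fold, and their known sites did not divide them. Slc29a1, the equilibrative carrier ENT1 of the plasma membrane, read 5.47, 6.05 and 6.80, or 2.51-fold lower in GFP high relative to GFP negative cells. Slc29a3, ENT3, the lysosomal relative, read 8.97, 8.04 and 7.77, or 2.30-fold higher. Slc29a4, which takes up monoamines at the plasma membrane, read 9.30, 8.73 and 8.19, or 2.15-fold higher. GFP high cells were thus highest for 2 of these and lowest for the third, with GFP low cells in between each time. Slc29a2 was detected in GFP low cells only, with bounds of just 1.07-fold above GFP high and 1.06-fold above GFP negative cells.

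Among metal carriers, Slc11a1 differed most. This iron and manganese carrier of phagocyte endosomes, by its known role in macrophages, had unnormalized intensities of 299.98, 392.1 and 1169 and log2 signals of 7.89, 8.20 and 10.07. It was high in GFP negative cells and lower by a similar amount in both GFP positive populations, 4.55-fold lower in GFP high and 3.66-fold lower in GFP low cells. A list of macrophage and microglia markers, added after this value was seen, had 8 genes on the array and 0 of them detected in any population. Slc11a1 had 4 probes on the array, and 1 was detected. Its widely used relative Slc11a2, DMT1, differed by -0.37 between GFP high and GFP negative cells.

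Zinc carriers lay on both sides of 0 between GFP high and GFP negative cells. Slc39a11 was lower at -0.35, just past the probe-choice SD of 0.33. Slc30a5 and Slc30a7, at -0.31 and -0.29 on their brightest probes, stayed within it, and the second probe of Slc30a5 differed by -0.08. Slc30a1, ZnT1, which exports zinc at the plasma membrane, read 8.39, 7.998 and 7.24, or 2.23-fold higher in GFP high relative to GFP negative cells. Slc30a3, ZnT3, which fills synaptic vesicles with zinc, read 5.69 and 5.70 in GFP high and low cells and was not detected in GFP negative cells, at least 1.46-fold and 1.47-fold above them. Slc39a3, a zinc importer, differed by 0.77 on its brightest probe and by 0.19 on its second, which was not detected in GFP negative cells. Slc39a14, another importer, differed by 0.04 on its brightest probe. Slc41a3, a magnesium carrier, had differences of 0.70 and 1.55 from its 2 detected probes, the second of which was not detected in GFP negative cells. Slc40a1, ferroportin, which exports iron, differed by 0.29 and Slc31a1, the main copper importer, by -0.21. The second copper carrier, Slc31a2, read 5.16, 5.85 and 5.63 and was lowest in GFP high cells, at -0.47 against GFP negative and -0.69 against GFP low cells. Across 21 metal carriers the median was -0.09, with 9 above and 12 below 0.

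Inorganic ion carriers had no gene 2-fold higher in GFP high relative to GFP negative cells and 2 that were lower. Slc12a2, NKCC1, which loads cells with chloride, read 10.42, 10.88 and 11.18, a stepwise difference of -0.76 between GFP high and GFP negative cells. Slc12a7, a potassium-chloride exporter, differed by -0.33, and its neuronal relative Slc12a5 was not detected on any array. The level of Slc12a2 was lowest in GFP high cells, as were the summed signals of all detected marker lists except the neuronal list. A link to any of these lists was not tested. Slc12a8 was not detected in GFP high cells and read 5.77 and 6.47 in GFP low and GFP negative cells, at least 2.54-fold lower in GFP high relative to GFP negative. That bound holds for the background setting used, and across other settings the difference fell to -0.63, under 2-fold.

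Exchangers of calcium for sodium were detected for the plasma membrane and for mitochondria. Slc8a1, the sodium-calcium exchanger NCX1 of the plasma membrane, read 7.64, 7.08 and 6.92, a difference of 0.72. Slc8a2, NCX2, known from brain, was detected at 5.73 and 5.21 in GFP high and low cells and not in GFP negative cells, at least 1.504-fold lower there than in GFP high cells and at least 1.05-fold lower than in GFP low cells. Slc24a3, which exchanges calcium for sodium and potassium, read 8.34, 8.54 and 7.53, and was 2.01-fold higher in GFP low than in GFP negative cells. In GFP high cells these 3 were above GFP negative cells, none at a measured 2-fold, and in GFP low cells Slc8a1 exceeded GFP negative cells by 0.16, within the probe-choice SD. Slc8b1, the mitochondrial sodium-calcium exchanger, read 6.49, 6.85 and 7.71, or 2.33-fold lower in GFP high relative to GFP negative cells. Slc4a2, an anion exchanger that takes part in pH control, read 7.95, 8.11 and 8.91 and Slc20a2, a phosphate carrier, 7.86, 8.25 and 8.81, both highest in GFP negative cells.

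Mitochondrial carriers, with 28 genes the largest class, had 1 gene 2-fold higher and 1 gene 2-fold lower in GFP high relative to GFP negative cells. Slc25a36, a pyrimidine nucleotide carrier, read 10.76, 10.46 and 9.76, or 2.00-fold higher. Slc25a15, which exchanges ornithine for citrulline in the urea cycle, read 6.86, 7.41 and 8.10, or 2.36-fold lower, but its second probe differed by 0.00. Slc25a1, the citrate exporter that feeds lipid synthesis, read 9.45, 9.14 and 8.76, with differences of 0.69 and 1.05 from its 2 probes. Between GFP high and GFP negative cells 16 of the 28 were above 0 and 12 were below, with a median of 0.12, against 0.02 for all genes. Between GFP high and GFP low cells 17 of 26 were above 0 and the median was 0.22, or 0.12 with undetected signals at their bound, against 0.03 for all genes.

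Other mitochondrial genes differed in both directions by less than 2-fold. Slc25a39, which brings glutathione into mitochondria, read 7.87, 8.69 and 8.75, and was the carrier of the class with the lowest difference between GFP high and GFP low cells, at -0.81. Slc25a30 read 8.01, 7.73 and 7.22, a difference of 0.79. Slc25a5, an ADP and ATP exchanger of dividing cells, read 13.08, 13.24 and 13.32, and Slc25a12, the aspartate and glutamate carrier, differed by 0.09. Slc25a28, mitoferrin 2, which imports iron, read 9.40, 9.53 and 10.08 and was highest in GFP negative cells.

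**Figure D3:**
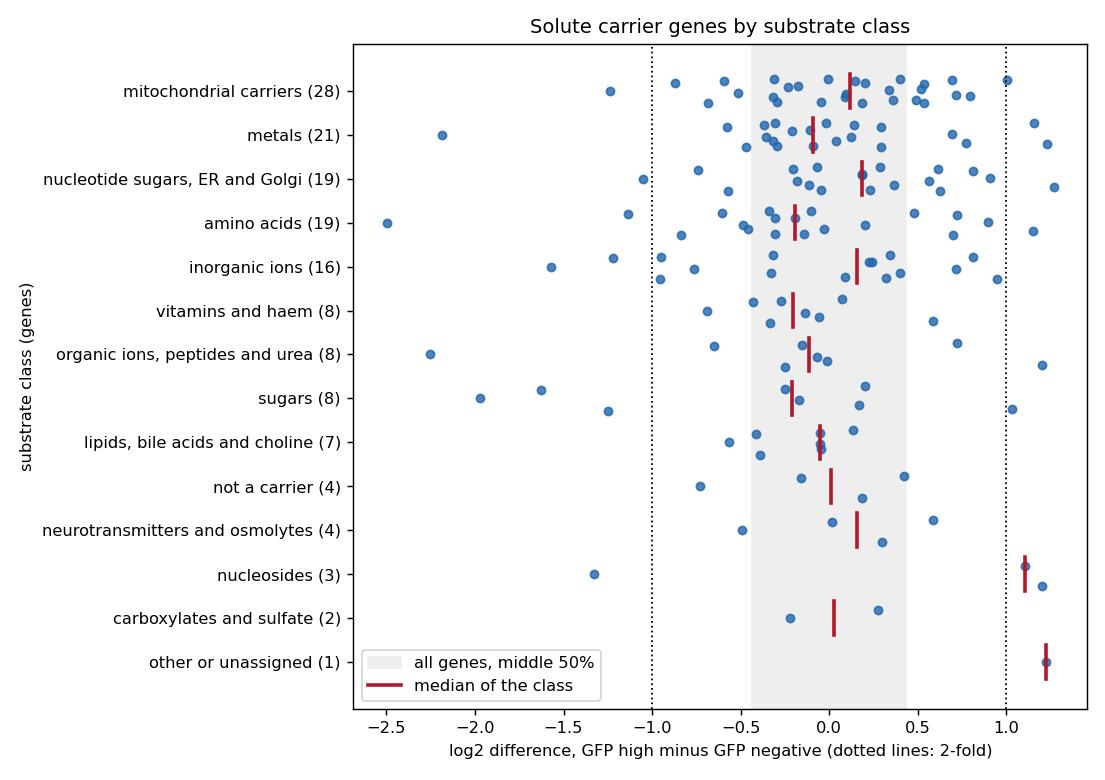
Log2 difference of GFP high minus GFP negative cells (horizontal axis) for each carrier gene, by substrate class, with the number of genes in parentheses, the class median as a red line, the middle 50% of all genes as a grey band and dotted lines at 2-fold. Class medians run from -0.21 for sugars to 1.10 for the 3 nucleoside carriers (Slc66a2 is alone in its class at 1.22), and single genes such as Slc7a11 at -2.50 lie far from their class median.

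Carriers of nucleotide sugars and other substrates of the ER and Golgi, which supply glycosylation, had 1 gene 2-fold lower and 1 higher, the latter not detected in GFP negative cells. Their median was 0.19 over 19 genes, with 11 above and 8 below 0. Slc35b1, which exchanges ATP for ADP across the ER membrane, read 11.13, 10.79 and 10.50, a difference of 0.62. Slc35f1, whose substrate is not settled, read 5.48, 5.76 and 6.52, or 2.07-fold lower in GFP high relative to GFP negative cells. Slc35e4, an orphan, was detected at 5.80 and 5.44 in GFP high and low cells and not in GFP negative cells, at least 1.58-fold lower there than in GFP high cells and at least 1.23-fold lower than in GFP low cells. Slc37a1, a sugar phosphate exchanger of the ER, read 6.69, 6.79 and 5.88, and was higher in both GFP positive populations. Slc35a5 had detected probes at 0.90 and -0.36, so its direction depended on the probe.

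Peptide and organic ion carriers held the only gene kept by the rule that was 2-fold higher in GFP high relative to GFP low cells. Slc15a2, PEPT2, which takes up di- and tripeptides with protons, read 6.85, 5.55 and 5.64. It was high in GFP high cells alone, 2.46-fold above GFP low and 2.30-fold above GFP negative cells, which were close to each other. Slc22a23, an orphan relative of the organic ion carriers, read 5.46, 6.87 and 7.71 and ran the other way, 4.77-fold lower in GFP high relative to GFP negative cells and 2.67-fold lower than in GFP low cells. Slc22a17, the receptor for lipocalin 2, differed by 0.72 on its brightest probe, while its second probe was not detected in GFP negative cells, and Slc17a5, sialin, the lysosomal sialic acid exporter, by -0.65. Slc66a2, a member of a family of lysosomal and Golgi proteins with no settled substrate, read 9.27, 8.93 and 8.04, or 2.33-fold higher in GFP high relative to GFP negative cells.

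Of 15 transporters of transmitters and osmolytes on the array, not counting the genes left out by name, 4 were detected. Slc6a9, GlyT1, the glial glycine transporter, read 10.13, 9.77 and 10.62, with the lowest level in GFP low cells. Slc6a6, the taurine transporter, read 11.03, 10.99 and 10.73. Slc6a8, the creatine transporter, read 9.55, 9.43 and 8.97 and differed by 0.59 between GFP high and GFP negative cells. Slc17a8, VGLUT3, a vesicular glutamate transporter, was close to the detection limit in all 3 populations at 5.24, 5.14 and 5.23. The glutamate transporter Slc1a2, known from astrocytes, read 7.23, 7.43 and 7.03, and its 3 probes differed by 0.20 to 0.77 between GFP high and GFP negative cells.

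The vitamin, lipid and carboxylate carriers kept by the rule held no gene at 2-fold between GFP high and GFP negative cells. Among 8 vitamin and haem carriers, 6 were below 0, and 3 of these by more than the probe-choice SD. Of all 8617 genes, 4180 were below 0. Slc23a2, a sodium-dependent ascorbate carrier, differed by -0.69 and Slc46a1, the proton-coupled folate carrier, by -0.43. Slc5a6, a carrier of biotin and pantothenate, was above at 0.58. Of 7 lipid, bile acid and choline carriers 6 were below 0, and 3 of these by more than the probe-choice SD. Their median was -0.05, with Slc27a6, a fatty acid transport protein, lowest at -0.56. Slc16a13, a monocarboxylate carrier relative, read 6.11, 5.37 and 6.33 and was lowest in GFP low cells, and Slc16a6 differed by between 0.27 and 1.25 on its 3 probes. Of the non-carriers, the scaffold gene Slc9a3r1 differed by -0.73.

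GFP low cells, whose Mnx1 signal was near that of GFP negative cells, lay between the others in 82 of 151 carriers (54.3%, against 59.2% of all genes). For the 22 carriers at least 2-fold apart between GFP high and GFP negative cells they lay between in 90.9%, against 93.3% of all such genes, with 8 falling from GFP high to negative and 12 rising. The exceptions were Slc15a2, with GFP low cells lowest, and Slc30a3, with GFP low cells highest. By detection, 132 genes were detected in all 3 populations, 4 in both GFP positive populations but not GFP negative cells (Slc30a3, Slc35e4, Slc38a1 and Slc8a2), and 6 in GFP negative cells only (Slc1a5, Slc25a13, Slc25a18, Slc30a8, Slc39a1 and Slc49a4). For those 6 the bounds were at most 1.13-fold, so the calls turn on the detection limit and do not mark a population. Slc49a4 had an unnormalized intensity of 116.0 in both GFP low and GFP negative cells.

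Genes measured by more than 1 detected probe give the one internal check the arrays allow. There were 37, and the brightest and second probes had the same sign in 25 of them for GFP high against GFP negative cells and in 27 for GFP low against GFP negative cells. Of 3 genes at 2-fold with several probes, 2 had the same sign. That SD among these genes was 0.34, close to the 0.33 over all 2370 genes with several detected probes. None had probes opposed at 1.5-fold in both directions.

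**Figure D4:**
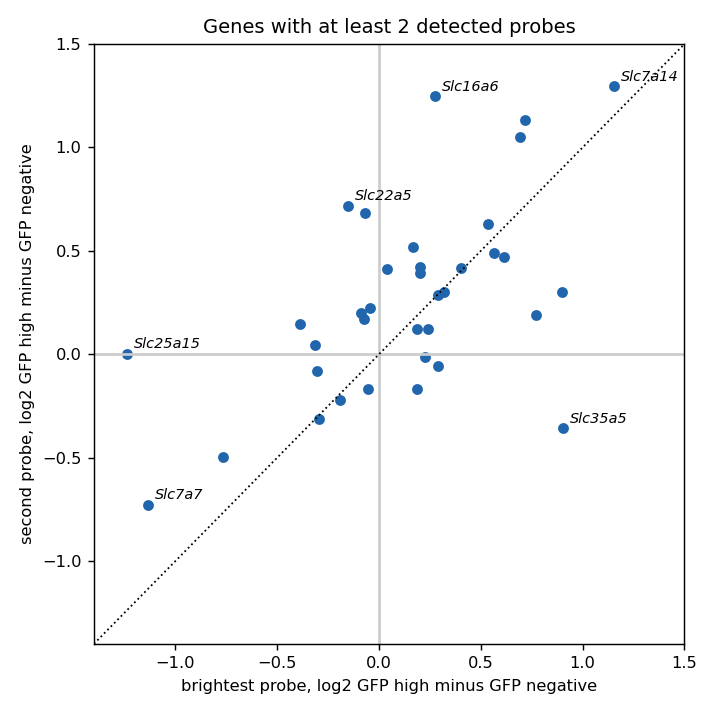
Log2 difference of GFP high minus GFP negative cells for the brightest (horizontal axis) and second brightest (vertical axis) detected probe of the 37 carrier genes with more than 1. Points in the lower left and upper right have the same sign on both probes (25 of 37); Slc25a15 has -1.24 on one and 0.00 on the other.

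Genes outside the family that work with carriers were listed as partners. Among pumps that build the gradients, 11 genes could be compared between GFP high and GFP negative cells, with 1 at 2-fold higher and 2 lower. Of all 8617 genes in that comparison, 7.0% were 2-fold higher and 9.89% lower, and no partner list was tested against these shares. The 5 proton pump subunits of that list, which acidify lysosomes and vesicles, were all above 0 with a median of 0.73, from 0.69 for Atp6v1a to 1.22 for Atp6v0d1. Of the sodium pump beta subunits, Atp1b1 differed by -0.98, Atp1b2 was not detected in GFP high cells, and Atp1b3 differed by 0.05. Of 13 detected carriers of other names, 4 were 2-fold higher, among them Sv2a of synaptic vesicles at 1.55 and the phosphate exporter Xpr1 at 1.27, and 1 was lower, the haem carrier relative Flvcr2, which was detected in GFP negative cells only.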

How the data were processed

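Per the file headers, the authors deposited an unnormalized linear intensity and a detection p-value for each probe and array, and a value table of intensity with a floor of 10, whose normalization is not given in the sources used here. GenomeStudio is named per the submitters' processing notes. Intensities were background-corrected with normexp from the detection p-values (offset 16), then quantile normalized and log2 transformed (limma 3.58.1, R 4.3.3); further steps used Python 3.11.15 and pandas 2.3.3. Of the probes, 23978 have 1 symbol, 0 several and 1719 none. The estimated background mean was 93.4, 96.1 and 95.4 in GFP high, low and negative cells. A gene was its brightest detected probe by mean over the 3 arrays, and a gene undetected on the dimmer array was given a bound from the lowest detected signal (5.13, 5.13 and 5.14 on the log2 scale), written as at least N-fold. Such a bound holds for the offset of 16 only. Counts at 2-fold covered genes with a detected probe on 1 or both arrays. Arrays were grouped by the labels; their number limits the precision. The authors' table was matched to the arrays by its differences between them (correlations 0.994, 0.991 and 0.994 over 5310 probes); its medians were 12.6, 12.5 and 12.5, and its background subtraction stays unknown. Normalization was tested on simulated data. Named genes were the 10 highest and lowest of each comparison, the extremes and brightest gene of each class, and listed well-known carriers. The members, lists, classes and motifs were chosen with earlier results of these data known. Alternatives were other background settings, scaling, detection limits, probe rules and the authors' table.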

Additional observations from a re-analysis of the deposited data

How the results depend on the processing

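No paired analysis was possible because each population had 1 array, and no array could be left out. Between GFP high and GFP negative cells the 10 higher and 12 lower carriers became 1 and 4 without background correction and 4 and 6 with an offset of 50. Their median of -0.05 turned to 0.014 at a detection p-value under 0.05 and to 0.00055 when a gene was the mean of its detected probes. Between GFP high and GFP low cells, 1 higher and 4 lower became 0 and 0 without background correction and with the larger offset, and 2 and 8 in the authors' table. Between GFP low and GFP negative cells the 2 higher became 0 and 0 under those settings, 7 in the authors' table, 1 among genes detected on both arrays and 1 with undetected signals at their bound, and the 2 lower became 10 in the authors' table. The share of calls that were higher between GFP high and GFP negative cells was 45.5% and 20.0% without background correction. Of the 22 carriers at 2-fold between GFP high and GFP negative cells, 5 (Slc7a11, Slc22a23, Slc11a1, Slc2a1 and Slc66a2) stayed so in all 6 settings compared gene by gene. Of 255 differences of named genes, 57 moved by more than the probe-choice SD without background correction, 30 in the authors' table and 24 with the larger offset, and no difference of at least 2-fold changed sign. The offset draws dim genes toward 1-fold, and signals near background limit what dim carriers can show.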

Other observations

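Carriers known from lysosomes or endosomes, written as a list after the values had been seen, did not share a direction. Of 15 listed, 14 were detected and compared between GFP high and GFP negative cells. Slc29a3, Slc7a14 and Slc2a6 lay 2-fold or more above GFP negative cells and Slc11a1 as far below. In all, 7 were above 0 and 7 below, with a median of 0.06 and a range from -2.19 to 1.20. The higher values of Slc38a9 and Slc66a1 belong to this list, as does the lower value of Slc17a5.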
